A study of Mus musculus with 6 samples.

Results

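Bidirectional promoters lie between neighbouring genes that are transcribed away from each other, and they are frequent among genes that every cell needs. The transcription start sites (TSSs) of such a pair usually share a nucleosome-depleted region, and the nucleosomes that flank this region on either side are the +1 nucleosomes of the genes. H2A.Z, a variant of histone H2A that the SRCAP and p400 complexes place into chromatin, is known to be concentrated in the nucleosomes around the TSSs of active genes. The question here was how accessible these shared promoters were in skeletal muscle of CTL and H2A.Z dKO mice. Accessibility was measured by ATAC-seq, in which the Tn5 transposase cuts DNA that nucleosomes leave exposed, so that an accessible region collects many fragment ends.

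An interval of the deposited mm9 table was taken as a bidirectional promoter interval where its nearest edge lay within 500 bp of the TSSs of 2 different protein-coding genes on opposite strands (GENCODE vM1 transcripts, 19 autosomes). This held for 1960 of 39768 intervals (4.93%). The study's text gives another total for its intervals, so that shares of the table refer to the rows analysed here. They made up 10.8% of the autosomal intervals within 500 bp of a protein-coding TSS, and the other 16229 such intervals are called unidirectional. The bidirectional intervals belonged to 1005 gene pairs with 2001 genes, each interval being named after the nearest TSS of each strand. Of these pairs, 371 held 1 interval, 398 held 2 and 236 held 3 or more, with a maximum of 7, so that intervals of a pair share a promoter. Chromosome 11 held the most bidirectional intervals (191) and chromosome 18 the fewest (51). In 51 intervals the TSSs of more than 2 genes lay within reach. Width ranged from 14 to 1027 bp with a median of 219 bp. A total of 463 intervals (23.6%) overlapped another interval of the table, and fragment ends in a shared part count in both.

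Each library came from 50000 nuclei of C57BL/6 mice (C57BL/6N in the methods) at 7 weeks, and all mice carried the floxed alleles H2A.Z-1 flox/flox and H2A.Z-2 flox/flox of the genes H2afz and H2afv. There were 3 CTL libraries without the transgene (HSA CRE -, called WT in the labels) and 3 H2A.Z dKO libraries with it (HSA CRE +). The HSA promoter drives Cre in post-mitotic muscle fibres, so that nuclei of other cell types in the muscle keep H2A.Z. The labels name tibialis anterior muscle and purification of nuclei by ultracentrifugation, whereas the methods describe hind limb muscles and a Dounce homogenizer, and neither says how the libraries were assigned to animals. If libraries were made from the same animal, the p-values below cover technical spread only.

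The total count in intervals ranged from 3520008 to 6117245 per library. H2A.Z dKO replicate 1 stood apart: the median bidirectional interval lay 0.12 above the mean of the 6 libraries on the log2 scale in this library, against -0.058 to 0.013 in the other 5. Some of the results below are therefore also given without it. In the segment between the loxP sites of H2afz, which should be missing from fibre nuclei after recombination, the table holds 2 intervals. For the first (Peak_7050) the counts were 51, 36 and 11 over the CTL libraries and 36, 30 and 40 over the H2A.Z dKO libraries, and the second (Peak_7051) had 28, 33 and 22 against 21, 22 and 24. These counts therefore did not separate the groups, and the H2A.Z dKO group is known here by its labels. Markers of muscle fibres had an interval near the TSS for 5 of 6 genes (Mylpf had none), with a sum of 258 to 347 CPM (counts scaled to the library size) in CTL and 261 to 351 in H2A.Z dKO. Endothelial markers had one for 4 of 5 genes (Pecam1 had none), with 56.0 to 69.0 CPM in CTL and 45.3 to 52.5 in H2A.Z dKO, and fibroblast markers for 4 of 5 (Dcn had none), with 77.3 to 95 and 92.2 to 103.5 CPM. No interval was found at the 5 macrophage or the 4 satellite cell markers. The endothelial sums, over 7 intervals, were thus lower in every H2A.Z dKO library, whereas the fibre and fibroblast sums overlapped between groups. No test was made of these sums, and an exact permutation p of 0.1 is the smallest possible with 3 libraries a group. In bulk nuclei, fewer nuclei of a type and less accessible chromatin per nucleus cannot be told apart.

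The sequence between the TSSs shows how compact these promoters are. The stretch free of annotated exons between the TSSs of a pair is given for pairs that recur below: Fbxo24/Lrch4 and Ggps1/Arid4b for their high accessibility, Sirt3/Psmd13 as a well known bidirectional promoter, Ruvbl2/Gys1 for its link to H2A.Z exchange, and Chtf8/Cirh1a as a pair with a small p between the groups. Each is the plus strand of mm9 from 5′ to 3′ (coordinates counted from 1), so that the gene named first is read leftwards. The stretch starts next to the TSS of that gene except in Ggps1/Arid4b. There the TSSs are 383 bp apart, and the 114 bases shown touch neither TSS. Capitals mark matches, on either strand, to the letters searched for NFY (CCAAT), SP1 (GGGCGG), ETS factors (CCGGAAGT), ZNF143 (ACTACAATT), CRE-binding factors (TGACGTCA) and the TATA box (TATAAA).
Fbxo24/Lrch4, chr5:138070231-138070350: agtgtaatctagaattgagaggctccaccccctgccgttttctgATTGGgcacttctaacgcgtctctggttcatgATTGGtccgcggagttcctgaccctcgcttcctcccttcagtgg
Ggps1/Arid4b, chr13:14155757-14155870: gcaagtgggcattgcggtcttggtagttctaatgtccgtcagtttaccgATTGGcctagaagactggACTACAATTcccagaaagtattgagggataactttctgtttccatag
Ruvbl2/Gys1, chr7:52690080-52690213: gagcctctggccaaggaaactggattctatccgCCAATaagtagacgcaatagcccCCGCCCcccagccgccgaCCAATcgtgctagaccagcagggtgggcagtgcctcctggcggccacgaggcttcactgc
Sirt3/Psmd13, chr7:148067769-148067866: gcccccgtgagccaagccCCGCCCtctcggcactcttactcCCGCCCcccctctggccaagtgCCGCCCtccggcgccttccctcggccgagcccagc
Chtf8/Cirh1a, chr8:109417494-109417539: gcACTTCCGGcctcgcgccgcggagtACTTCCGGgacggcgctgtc

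There were 3 SP1 matches between Sirt3 and Psmd13. The stretch between Chtf8 and Cirh1a was 46 bp long and held 2 ETS matches, and those of Fbxo24/Lrch4 and Ruvbl2/Gys1 held 2 NFY matches each. Such a match is a description of the letters, not a bound site.

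The pairs were close together. In 1610 of the intervals (82.1%) the minus-strand TSS lay to the left of the plus-strand TSS, as in a divergent pair, and the TSSs were a median of 144 bp apart (quartiles 75 and 276 bp, maximum 1128 bp). In the remaining 350 (17.9%) the nearest TSSs were in the reverse order, so that the heads of the transcripts overlapped, by a median of 238 bp and up to 1083 bp. These intervals are not divergent in the strict sense. Since each gene can have several TSSs, 97 of the 1005 pairs had intervals of both kinds. A total of 761 intervals covered both TSSs, 629 covered 1 and 570 covered 0.

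**Figure D1:**
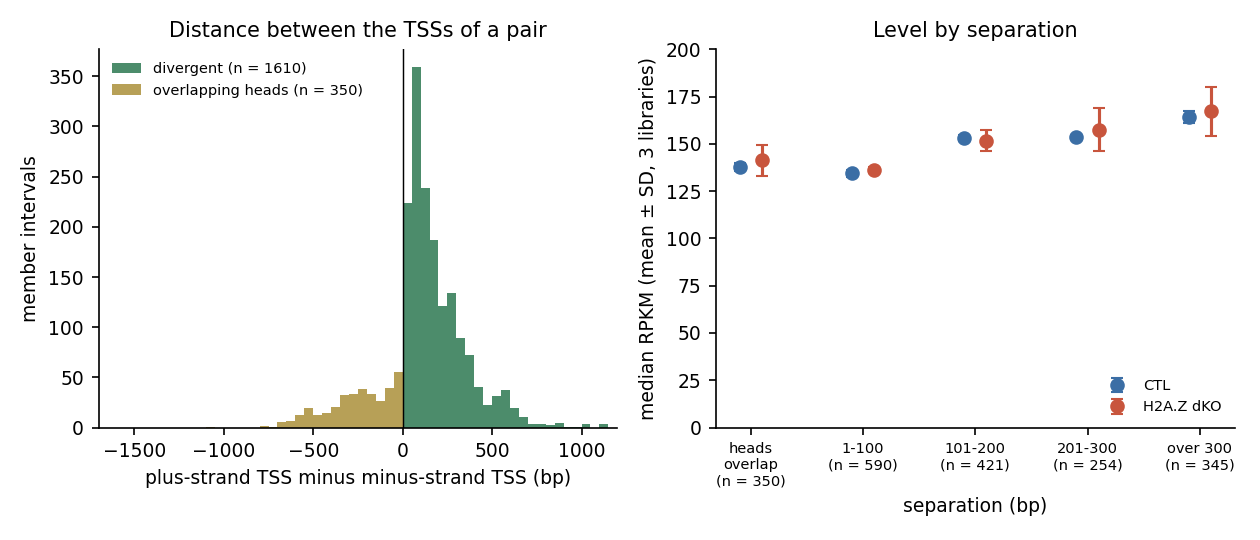
Left, distance from the minus-strand to the plus-strand TSS in bp for the 1960 bidirectional promoter intervals, as a histogram, with 1610 divergent intervals to the right of 0 and 350 with overlapping heads to the left. Right, median RPKM by separation in bp (points, mean of 3 libraries per group; bars, SD), which is 136 at 1 to 100 bp and 166 above 300 bp over all libraries.

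Bidirectional promoter intervals were more accessible per base than unidirectional ones in every library. RPKM, which divides the count of an interval by its width and by the counts in all intervals of the library, had a median over the bidirectional intervals of 145.8, 146.3 and 144.7 in CTL replicates 1, 2 and 3, and of 155.3, 142.0 and 143.5 in H2A.Z dKO. The unidirectional intervals lay between 130.7 and 138.1, and the 20928 other autosomal intervals between 89.4 and 109.9. On the log2(RPKM + 1) scale the bidirectional median exceeded the unidirectional one by 0.134 ± 0.018 (SD, n = 6 libraries), and the difference was positive in 6 of 6 libraries (exact sign-flip permutation test, two-sided p = 0.031, the smallest this design can give). All libraries share the same intervals, so that this p speaks of the libraries and not of other sets of promoters. With the best covered interval of each pair alone the difference was 0.264, a choice that raises the bidirectional level by construction.

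The excess was not the same at every width. The authors extended each fragment end before counting, so that intervals also collect ends from outside their edges. This can raise the RPKM of narrow intervals, which was not tested. Bidirectional medians were 128 RPKM under 100 bp and 124.5 RPKM at 100 to 200 bp. They were 155.6 RPKM at 200 to 400 bp and 187.7 RPKM above 400 bp. Among intervals under 100 bp the difference was 0.022 ± 0.030 (SD, n = 6 libraries, exact sign-flip permutation p = 0.125), with 2 libraries below 0. It was 0.139 ± 0.030 between 100 and 200 bp, 0.185 ± 0.029 between 200 and 400 bp and 0.081 ± 0.019 above 400 bp, with 6 of 6 libraries above 0 in each (exact sign-flip permutation p = 0.031 each). By GC content of the central 200 bp it was 0.241 ± 0.028 in the lowest of 4 GC classes, with a GC content up to 59.5%, and 0.096 to 0.105 in the other 3 classes, which are of like size over all promoter intervals. The median GC content was 65% in bidirectional and 66% in unidirectional intervals, and the ratio of observed to expected CpG was 0.86 and 0.82.

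**Figure D2:**
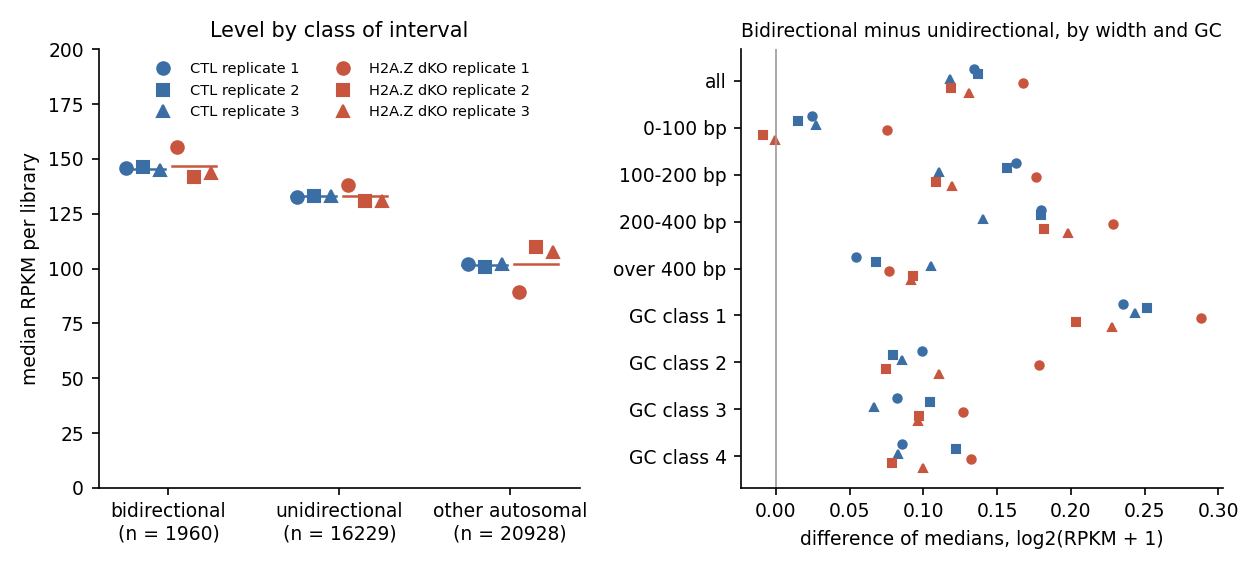
Left, median RPKM of each library for bidirectional, unidirectional and other autosomal intervals (points, libraries; lines, group means). Right, the bidirectional minus the unidirectional median on the log2(RPKM + 1) scale for each library, over all intervals, by width in bp and by GC class of the central 200 bp. All 6 libraries lie above 0 except 2 libraries among intervals under 100 bp.

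The single intervals ranged from 44.6 to 438.6 RPKM over the 6 libraries, and the middle 80% of them lay between 90.8 and 249.9 RPKM. Of the bidirectional intervals, 393 (20.1%) were among the most accessible 10% of the table, against 15.1% of the unidirectional and 5.36% of the other autosomal ones. By distance between the TSSs, the median was 139 RPKM with overlapping heads, 136 at 1 to 100 bp, 153 at 101 to 200 bp, 154 at 201 to 300 bp and 166 above 300 bp. Intervals that covered both TSSs had a median of 160 RPKM, those with 1 TSS 154 and those with 0 TSSs 121, and their median widths were 353, 195 and 104 bp. In divergent pairs, intervals centred between the TSSs had a median of 162 RPKM, above the 136 RPKM on the side of either gene. They were also wider, with a median of 265 bp against 178 bp on the minus and 170 bp on the plus side. The part of width in this difference was not tested. The minus and the plus side had like levels, 136.0 and 136.1 RPKM. Intervals between the TSSs held 47.3% ± 0.131 (SD, n = 3) of the counts of all bidirectional intervals in CTL and 46.6% ± 0.835 (SD, n = 3) in H2A.Z dKO, and the two-sided exact permutation p was 0.2, where 0.1 is the smallest possible. The difference of -0.609 percentage points became -0.128 without H2A.Z dKO replicate 1, the library with the lowest share (45.7%). The minus side held 19.1% and 19.3% and the plus side 17.6% and 17.8%, with exact permutation p-values of 0.8 and 0.6. Intervals with overlapping heads held 16% ± 0.0594 and 16.3% ± 0.262 (SD, n = 3 each), and their share was higher in every H2A.Z dKO library than in any CTL library (exact permutation p = 0.1, the smallest possible).

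The letters of several factor motifs were counted in the central 200 bp. The ETS letters were found in 8.52% of bidirectional, 5.08% of unidirectional and 0.62% of other autosomal intervals. YY1 (AAGATGGCG) matched in 3.01%, 2.14% and 0.31%, and NRF1 (GCGCATGC) in 3.88%, 3.70% and 0.77%. The SP1 letters, which overlap with CpG-rich sequence in general, stood in 56.7% and 60.0% of bidirectional and unidirectional intervals and in 14.6% of the others. For CCAAT, the NFY motif, the shares were 25.9%, 23.9% and 21.4%. Bidirectional intervals with CCAAT had a median of 174 RPKM and those without it 138 RPKM, and the unidirectional ones 154 and 128 RPKM. The CAGCTG form of the E-box, a motif of the myogenic factors, matched in 7.96% of bidirectional, 11.8% of unidirectional and 23.1% of other intervals. MCAT (CATTCC), another motif of muscle genes, matched in 7.14%, 6.56% and 12.6%, TATAAA in 2.14%, 2.54% and 6.47%, the CRE letters in 2.70%, 2.37% and 0.58%, and the ZNF143 letters in 0.66%, 0.43% and 0.06%. Short motifs match by chance more often than long ones, and windows of overlapping intervals share sequence, so the shares are given without a test.

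The genes of these pairs were sorted into groups by symbol. Of 10418 protein-coding gene symbols with an interval within 500 bp of a TSS, 2000 (19.2%) were in a pair, where the symbol Moap1 stands for 2 gene identifiers. Histone genes had the highest share, 19 of 32 (59.4%), followed by DNA replication and repair with 35 of 95 (36.8%). Mitochondrial functions were also frequent: genes with symbols of the respiratory chain and ATP synthase with 28 of 83 (33.7%, with Cox4nb, which encodes neither a subunit nor an assembly factor) and mitochondrial ribosomal proteins with 24 of 72 (33.3%). Chaperones followed with 19 of 65 (29.2%) and aminoacyl-tRNA synthetases with 10 of 37 (27.0%). Proteasome genes (9 of 45, 20%) and cytosolic ribosomal proteins (14 of 78, 17.9%, with Rps6kb1, a kinase caught by its symbol) lay near the share of all genes. Below it lay the subunits and chaperones of H2A.Z exchange with 2 of 15 (Ruvbl2 and Znhit1), zinc finger genes with 24 of 258 (9.30%) and contractile genes with 1 of 17 (Actn3). The order describes the lists, for which no test was made.

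**Figure D3:**
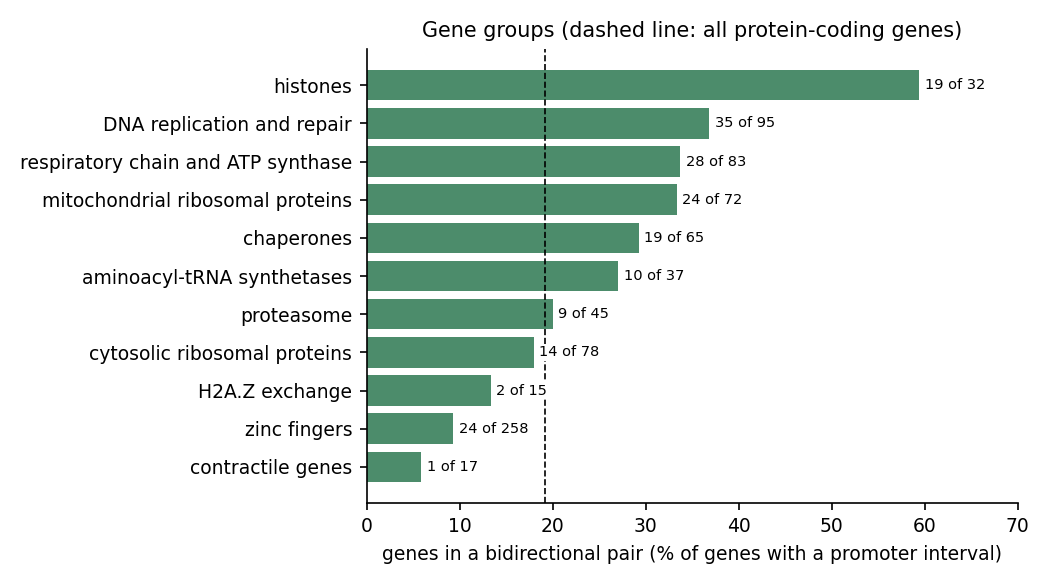
Share of the genes of each group that lie in a bidirectional pair, in percent of the genes of the group with a promoter interval (bars, with the counts beside them). The dashed line marks 19.2%, the share of all protein-coding genes, and histone genes reach 59.4%.

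The groups also differed in level. Median RPKM over the intervals of a group was 172 for H2A.Z exchange (7 intervals), 170 for chaperones (40) and 159 for DNA replication and repair (64). It was 149 for the proteasome (24), 148 for cytosolic ribosomal proteins (34), 138 for aminoacyl-tRNA synthetases (17), 137 for mitochondrial ribosomal proteins (49) and 133 for the respiratory chain (56). Zinc finger genes (44 intervals, 117 RPKM) and histones (14 intervals, 122 RPKM) had the lowest medians. Within each of the larger groups the levels overlapped widely, for example from 68.8 to 365 RPKM for mitochondrial ribosomal proteins.

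The highest mean levels were found at 6 pairs. The interval of Cep170/Sdccag8, genes for centrosomal proteins, had 461, 365 and 511 RPKM in CTL and 454, 415 and 425 RPKM in H2A.Z dKO. It was 45 bp wide, with 76 to 127 counts per library, so that its RPKM may be raised by its small width. That of Ubap2l/4933434E20Rik had 377, 357 and 401.4 RPKM in CTL and 681, 315 and 372 RPKM in H2A.Z dKO. It was 46 bp wide, with 65 to 184 counts per library, and its single high value was in H2A.Z dKO replicate 1, and the log2 fold change turned from 0.30 to -0.15 without that library. The other 4 intervals were 410 bp or more wide and hence better measured. Fbxo24/Lrch4 (chr5:138069875-138070452), a pair of an F-box protein and a leucine-rich repeat protein, was covered by 1420, 1132 and 878 counts in the CTL libraries and by 1257, 1067 and 1053 in the H2A.Z dKO ones, which is 402, 424 and 432 RPKM against 371, 406 and 363 RPKM. On the RPKM scale 1 H2A.Z dKO library lay within the range of CTL, whereas in CPM scaled by TMM factors, which correct for composition, all H2A.Z dKO libraries were lower. The log2 fold change was -0.14 ± 0.09 (SE; edgeR quasi-likelihood test, adjusted p = 0.972). Ranbp10/Tsnaxip1 had 369 to 410 RPKM over the 6 libraries, Ggps1/Arid4b, a geranylgeranyl diphosphate synthase and a subunit of the Sin3 corepressor, 331 to 455 RPKM, and C330011M18Rik/Rfx1 345 to 407.5 RPKM.

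Well known bidirectional pairs ranged widely in level. The chaperonin genes Hspd1/Hspe1, with TSSs 71 bp apart, had 191 to 231 RPKM over the 6 libraries, and Atm/Npat, a DNA damage kinase and a regulator of histone genes 307 bp apart, had 307, 306 and 302 RPKM in CTL and 261, 282 and 270 RPKM in H2A.Z dKO. The H2A.Z dKO libraries of Atm/Npat were all lower, with a log2 fold change of -0.17 ± 0.10 (SE) and an adjusted p of 0.972 in edgeR. Ranbp1/Trmt2a had 158 to 179 RPKM and Col4a1/Col4a2, which encode chains of basement membrane collagen and whose heads overlap by 21 bp, 132 to 200 RPKM. The purine synthesis genes Ppat/Paics were low, at 67.6 to 127 RPKM. Sirt3/Psmd13, a mitochondrial deacetylase and a proteasome subunit, had 2 intervals of 131 to 183 RPKM, and the immune genes Psmb9/Tap1 had 4 overlapping ones of 128 to 184 RPKM. Cdc45/Ufd1l had 3 intervals of 141.5 to 262 RPKM. In 1 of them all H2A.Z dKO libraries were higher, with 195, 190 and 182 RPKM in CTL against 214, 262 and 230 RPKM (log2 fold change 0.31 ± 0.17 SE, edgeR adjusted p = 0.972). Brca1/Nbr1 had 3 intervals of 140 to 313 RPKM, Wrap53/Trp53 2 of 109 to 175 RPKM and Hars/Hars2 2 of 60.3 to 148 RPKM. In CPM scaled by TMM factors, 1 interval of Wrap53/Trp53 was also higher in all H2A.Z dKO libraries (log2 fold change 0.18 ± 0.19 SE, edgeR adjusted p = 0.985). Surf1/Surf2, Prkdc/Mcm4 and Mrps12/Sars2 had no interval that met the rule. Neither had Tcp1 with Acat2, which was also looked up, whereas Tcp1 was in a pair with another gene.

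Genes of H2A.Z exchange itself were in 2 pairs. Ruvbl2, an ATPase of the SRCAP, p400 and INO80 complexes, shared its promoter with the muscle glycogen synthase gene Gys1. Of its 4 intervals, the 1 with most counts (chr7:52689609-52690173) was covered by 782, 603 and 424 counts in the CTL libraries and by 844, 561 and 574 in the H2A.Z dKO ones, which is 227, 231 and 214 RPKM against 255, 219 and 203 RPKM. The groups overlapped. Znhit1, a subunit of the SRCAP complex, was paired with Plod3, and its 3 intervals had 122 to 193.5 RPKM over all libraries. The single contractile gene was Actn3, which encodes the alpha-actinin of fast fibres, with Zdhhc24 on the other strand and the TSSs 759 bp apart. It had 226, 200.2 and 183 RPKM in CTL and 175, 173 and 192 RPKM in H2A.Z dKO, which overlap (log2 fold change -0.18 ± 0.12 SE, edgeR adjusted p = 0.972, and -0.091 without CTL replicate 1).

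The values around the limit of the rule were mixed. Just inside it, at 500 bp from the farther TSS, were an interval of Atg12/Ap3s1 with 95.1 RPKM and a pair of intervals of Ankrd17/Gm9958 with 222 and 233.5 RPKM. Just outside, at 502 and 503 bp, were Atp5f1/Wdr77 with 231 RPKM, Rsrc2/Kntc1 with 180 RPKM and Dusp13/Samd8 with 133 RPKM.

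Between H2A.Z dKO and CTL, no bidirectional promoter interval changed at an adjusted p under 0.05. The edgeR test called 0 of the 1960 intervals, as it did 0% of the whole table, and the smallest adjusted p among them was 0.972. With the p left unadjusted, 21 intervals higher in H2A.Z dKO and 31 lower ones had a p under 0.05, or 1.07% and 1.58% of them. In the table as a whole 2.64% were higher and 2.31% lower at this p. DESeq2 called 0 as well, with 9 intervals on either side under an unadjusted p of 0.05, or 0.918% against 1.9% of all intervals. Without H2A.Z dKO replicate 1 there were again 0 calls (smallest adjusted p = 0.392), but under an unadjusted p of 0.05 there were 20 higher (1.02%, against 4.24% of all intervals) and 96 lower ones (4.9% against 3.71%). Without H2A.Z dKO replicate 2 the counts were 60 higher (3.06% against 2.75% of all) and 31 lower (1.58% against 2.63%). Without H2A.Z dKO replicate 3 they were 46 and 40, or 4.39% together against 5.6% of all. With a CTL library left out they were 23 and 18 for replicate 1 (2.09% against 4.92%), 17 and 19 for replicate 2 (1.84% against 4.21%) and 11 and 9 for replicate 3 (1.02% against 3.18%).

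The size of the differences was small. The median log2 fold change of the bidirectional intervals was 0.014, against 0.012 over all intervals, and 90% of them lay between -0.24 and 0.30. There were 1058 positive and 902 negative values, in a range from -0.76 to 1.02. The median absolute log2 fold change was 0.10 in bidirectional and 0.14 in all intervals, and 11 bidirectional intervals (0.56%) differed by at least 1.5-fold, against 3.70% of all. These promoters were also measured more closely than the table as a whole: the median count was 153 against 67.3, and 1846 of them (94.2%, against 76.4% of all intervals) had at least 20 counts in every library. The coefficient of variation between libraries had a median of 8.73% in CTL and 12.8% in H2A.Z dKO (13.3% and 15.8% over all intervals). Unidirectional promoters were close to them, with a median count of 122.3 and coefficients of variation of 9.97% in CTL and 13.7% in H2A.Z dKO. The shares by size of change and confidence interval are set against all intervals alone, so they describe no trait of bidirectional promoters in particular. The 95% confidence interval of the fold change had a median half-width of 0.35 on the log2 scale, and it lay within a 2-fold change in 1926 intervals (98.3%, against 91.4% of all) and within a 1.5-fold change in 1470 (75%, against 49.6%). In CPM scaled by TMM factors the 3 libraries of each group did not overlap in 84 intervals that were higher and 126 that were lower in H2A.Z dKO, or 4.29% and 6.43% of them, against 5.22% and 5.63% of the table.

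**Figure D4:**
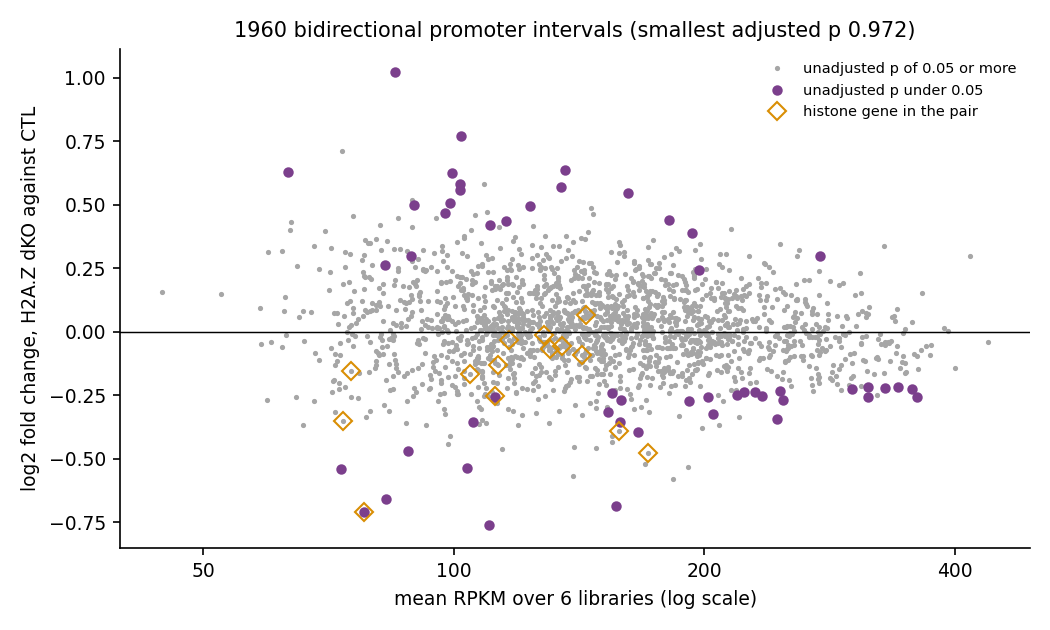
Log2 fold change of H2A.Z dKO against CTL by mean RPKM over 6 libraries (log axis) for the 1960 bidirectional promoter intervals. Filled circles mark the 52 intervals with an unadjusted p under 0.05, open diamonds the 14 intervals with a histone gene in the pair, and points lie between -0.76 and 1.02.

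Summed over all bidirectional intervals the groups did not differ beyond the spread of the libraries. They took 8.70%, 8.82% and 8.74% of all counts in CTL replicates 1, 2 and 3 and 9.06%, 8.54% and 8.61% in H2A.Z dKO. The means were 8.75% ± 0.0614 and 8.74% ± 0.281 (SD, n = 3 each; two-sided exact permutation p = 1, smallest possible 0.1). The share in H2A.Z dKO replicate 1 was above and the other 2 H2A.Z dKO libraries below all CTL libraries. The median log2(RPKM + 1) was 7.20 ± 0.0080 in CTL and 7.21 ± 0.070 in H2A.Z dKO (SD, n = 3 each; exact permutation p = 1). The excess over unidirectional promoters was 0.130 ± 0.011 in CTL and 0.139 ± 0.026 in H2A.Z dKO (SD, n = 3 each; exact permutation p = 0.8). Without H2A.Z dKO replicate 1, H2A.Z dKO minus CTL was -0.178 percentage points for the share and -0.029 for the median log2(RPKM + 1), each with an exact permutation p of 0.1, the smallest possible, and -0.0050 for the excess. By width, the excess between 200 and 400 bp was 0.167 ± 0.023 in CTL and 0.203 ± 0.024 in H2A.Z dKO, and all H2A.Z dKO libraries were higher (SD, n = 3 each; exact permutation p = 0.1, the smallest possible). In the other 7 classes of width or GC the exact permutation p was 0.3 to 1. Adjusted over the 16 such tests between groups, with the shares by position and that of the histone pairs, the p-values were 0.8 to 1.

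By the authors' own listing of intervals, 1244 of the bidirectional intervals (63.5%) stood under both groups, 435 (22.2%) under H2A.Z dKO alone and 281 (14.3%) under CTL alone. Over all intervals these shares were 38.7%, 43.4% and 17.9%, and over the unidirectional ones 54.0%, 30.4% and 15.6%. The median log2 fold change was 0.11 in the bidirectional intervals under H2A.Z dKO alone and -0.047 in those under CTL alone. Since the listing was made from these libraries, this is a description of it.

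The intervals with the smallest p among those higher in H2A.Z dKO are given first. The largest positive log2 fold change was at Nipal3/4930555I21Rik (chr4:135050944-135050986), a member of a family of magnesium transporters, where CTL libraries had 11, 14 and 8 counts and H2A.Z dKO libraries 25, 25 and 23. It was 1.02 ± 0.29 (SE), the only one of 2-fold or more, and rested on a 42 bp interval with few counts. Rad17/Taf9, a loader of the checkpoint clamp and a subunit of TFIID, had 107, 106 and 108 RPKM in CTL and 204.5, 158 and 132 RPKM in H2A.Z dKO (0.63 ± 0.19, and 0.42 without H2A.Z dKO replicate 1). Chtf8/Cirh1a, the pair with 2 ETS matches in 46 bp, had 116, 107 and 83.6 RPKM against 159, 139 and 137 RPKM (0.50 ± 0.17). Sclt1/D3Ertd751e, with a gene for a centriole protein, had 77.0, 89.4 and 78.4 RPKM against 125, 124 and 117 RPKM (0.58 ± 0.22). In these 4 intervals every H2A.Z dKO library was above every CTL library, and the adjusted p was 0.972 in the edgeR test for each.

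Of the intervals with the smallest p among those lower in H2A.Z dKO, Tmem205/Ccdc159 had 172, 193 and 203 RPKM in CTL and 120.4, 156 and 155 RPKM in H2A.Z dKO (log2 fold change -0.40 ± 0.12 SE). Hras1/Lrrc56, with the gene of a small GTPase, had 103, 85.8 and 115 RPKM against 52.6, 80.8 and 60.0 RPKM (-0.66 ± 0.22). Wdr4/Ndufv3, a subunit of a tRNA methyltransferase and a subunit of complex I, had 243, 306 and 273 RPKM against 205, 234 and 207 RPKM (-0.35 ± 0.12). Rbak/4933411G11Rik, with the gene of a zinc finger protein that binds RB, had 118, 108 and 129 RPKM against 84.2, 99.4 and 94.5 RPKM (-0.35 ± 0.12). Again the libraries of the groups did not overlap, and the adjusted p was 0.972 in the edgeR test for each. These 8 intervals were picked for their p and are given as a description.

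By gene group, 0 intervals passed the test in any of the lists. Positive log2 fold changes prevailed in the respiratory chain (39 positive, 17 negative, median 0.049), in mitochondrial ribosomal proteins (34 and 15, median 0.044) and in the proteasome (17 and 7, median 0.043). Of the 56 respiratory chain intervals, 1 (Wdr4/Ndufv3) was lower at an unadjusted p under 0.05, and no other interval of these lists passed that level. In the table as a whole 2.64% were higher and 2.31% lower at this p. Replication and repair genes were balanced (33 and 31, median 0.0037), with 1 of 64 intervals on either side under an unadjusted p of 0.05, beside the same 2.64% and 2.31% of the table. So were chaperones (19 and 21, median -0.017), aminoacyl-tRNA synthetases (8 and 9, median -0.019), cytosolic ribosomal proteins (18 and 16, median 0.012) and zinc finger genes (21 and 23, median -0.014). Of the 44 zinc finger intervals, 1 was lower at an unadjusted p under 0.05, against 2.31% of the table. No interval of the chaperones, synthetases or cytosolic ribosomal proteins passed that level. For H2A.Z exchange there were 2 positive and 5 negative values (median -0.039). Over all bidirectional intervals the counts were 1058 and 902. Leaving out H2A.Z dKO replicate 1 changed many of these signs. Without it, 24 intervals of the respiratory chain were positive and 32 negative (median -0.025), 19 and 30 of the mitochondrial ribosomal proteins (-0.013), 8 and 16 of the proteasome (-0.048), 12 and 28 of the chaperones (-0.058), 16 and 28 of the zinc finger genes (-0.044), 15 and 19 of the cytosolic ribosomal proteins (-0.029), 1 and 6 of H2A.Z exchange (-0.11), 32 and 32 of the replication and repair genes (-0.0014), 8 and 9 of the aminoacyl-tRNA synthetases (-0.0026) and 714 and 1246 of all bidirectional intervals (-0.050). The median over all intervals of the table was 0.0015 without that library.

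Among the lists with more than 1 interval, histone genes had the median farthest from 0 with all 6 libraries, but not without H2A.Z dKO replicate 1, where H2A.Z exchange and chaperones lay farther from it. Replication-dependent histone genes come in clusters, and H2A and H2B genes are often paired head to head over a shared promoter. NFY motifs and TATA boxes are typical of their promoters. The stretches between the TSSs of 4 such pairs, and of the histone H4 gene Hist1h4d with the predicted gene Gm17658, are shown with the same capitals as above, since they differ from the promoters shown first.
Hist1h2ac/Hist1h2bc, chr13:23775818-23776067: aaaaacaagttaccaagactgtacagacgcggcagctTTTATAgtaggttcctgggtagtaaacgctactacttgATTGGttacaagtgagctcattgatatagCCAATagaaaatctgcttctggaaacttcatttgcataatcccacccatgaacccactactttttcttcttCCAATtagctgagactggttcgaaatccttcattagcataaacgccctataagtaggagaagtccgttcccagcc
Hist1h2ag/Hist1h2bj, chr13:22134819-22135082: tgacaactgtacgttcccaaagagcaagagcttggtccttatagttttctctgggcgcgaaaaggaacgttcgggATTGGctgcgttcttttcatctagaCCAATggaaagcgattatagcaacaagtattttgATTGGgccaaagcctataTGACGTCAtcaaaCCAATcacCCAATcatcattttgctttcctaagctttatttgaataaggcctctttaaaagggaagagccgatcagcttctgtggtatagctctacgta
Hist1h2bl/Hist1h2ai, chr13:21808013-21808280: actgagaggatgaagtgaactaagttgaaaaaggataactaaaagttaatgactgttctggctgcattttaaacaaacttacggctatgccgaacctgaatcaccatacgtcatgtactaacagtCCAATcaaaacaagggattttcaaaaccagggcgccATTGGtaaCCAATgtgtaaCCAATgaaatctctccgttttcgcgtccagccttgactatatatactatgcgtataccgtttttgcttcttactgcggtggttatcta
Hist2h2ac/Hist2h2be, chr3:96024804-96025043: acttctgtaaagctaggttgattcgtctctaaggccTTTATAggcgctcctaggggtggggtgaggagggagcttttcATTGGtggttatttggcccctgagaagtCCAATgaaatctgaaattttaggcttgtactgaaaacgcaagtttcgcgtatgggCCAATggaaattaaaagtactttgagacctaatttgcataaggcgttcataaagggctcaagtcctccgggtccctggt
Gm17658/Hist1h4d, chr13:23673332-23673466: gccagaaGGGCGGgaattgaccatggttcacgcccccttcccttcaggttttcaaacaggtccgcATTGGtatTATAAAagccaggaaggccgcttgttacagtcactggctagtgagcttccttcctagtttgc

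In the central 200 bp of the 12 intervals in which both genes were histones, CCAAT matched in 11 (91.7%), TATAAA in 4 (33.3%) and GGGCGG in 1 (8.33%), against 25.9%, 2.14% and 56.7% of all bidirectional intervals. The median GC content of the 14 intervals with a histone gene was 44.8%, against 65% of all.

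These 14 intervals lay in 10 pairs, and 2 of them overlapped each other. Their log2 fold change was negative in 13 and positive in 1 (Hist2h2ac/Hist2h2be), with a median of -0.14 and a range from -0.71 to 0.067. Hist1h2bl/Hist1h2ai (chr13:21808085-21808336) had 84.0, 81.8 and 81.5 RPKM in CTL and 57.7, 59.5 and 77.0 RPKM in H2A.Z dKO. All of its H2A.Z dKO libraries were lower (log2 fold change -0.35 ± 0.19 SE, edgeR adjusted p = 0.972). The small interval at Hist1h2ah/Hist1h2bk (chr13:22127868-22127927), where each CTL library had 26 counts and the H2A.Z dKO libraries 17, 24 and 11, was the only one of the 14 at an unadjusted p under 0.05, where 2.31% of the table were lower (-0.71 ± 0.31 SE, edgeR adjusted p = 0.972). With 1 library left out its log2 fold change lay between -1.10 and -0.48, and no histone pair had an unadjusted p under 0.05 without H2A.Z dKO replicate 1, CTL replicate 2 or CTL replicate 3, or with DESeq2. The wide interval of the same pair had 133.5, 95 and 124 RPKM against 87.3, 117.5 and 142 RPKM, and its groups overlapped. Hist2h2ac/Hist2h2be, outside the large cluster on chromosome 13, had 130, 154.5 and 138 RPKM against 137, 154 and 151 RPKM. Both intervals of Gm17658/Hist1h4d were lower in all H2A.Z dKO libraries, at 131, 130 and 148 RPKM against 151, 227 and 160 RPKM, and at 125, 146.5 and 159 RPKM against 174, 252 and 170.5 RPKM. In CPM scaled by TMM factors, 3 of the 14 did not overlap between groups, all of them lower in H2A.Z dKO, where 5.63% of the table did so, and 2 of the 3 are of the pair Gm17658/Hist1h4d.

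The shift of the histone pairs rested largely on 1 library. They took 0.0369%, 0.0369% and 0.0374% of all counts in CTL replicates 1, 2 and 3 and 0.0286%, 0.0360% and 0.0395% in H2A.Z dKO, with a two-sided exact permutation p of 0.7. H2A.Z dKO replicate 1 was the lowest, H2A.Z dKO replicate 3 the highest, and the groups overlapped. Without H2A.Z dKO replicate 1 there were 8 negative and 6 positive log2 fold changes, with a median of -0.055. Without any of the other 5 libraries the median stayed between -0.23 and -0.15. In H2A.Z dKO replicate 1 the median deviation from the mean of the 6 libraries rose with GC content over the bidirectional intervals, from 0.028 in the lowest GC class to 0.10, 0.14 and 0.197 in the others, and it was -0.298 in the histone pairs. In the other libraries it lay between -0.088 and 0.034 in every class and between 0.0027 and 0.097 in the histone pairs. The part of GC content in the values of the histone pairs was not tested.

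**Figure D5:**
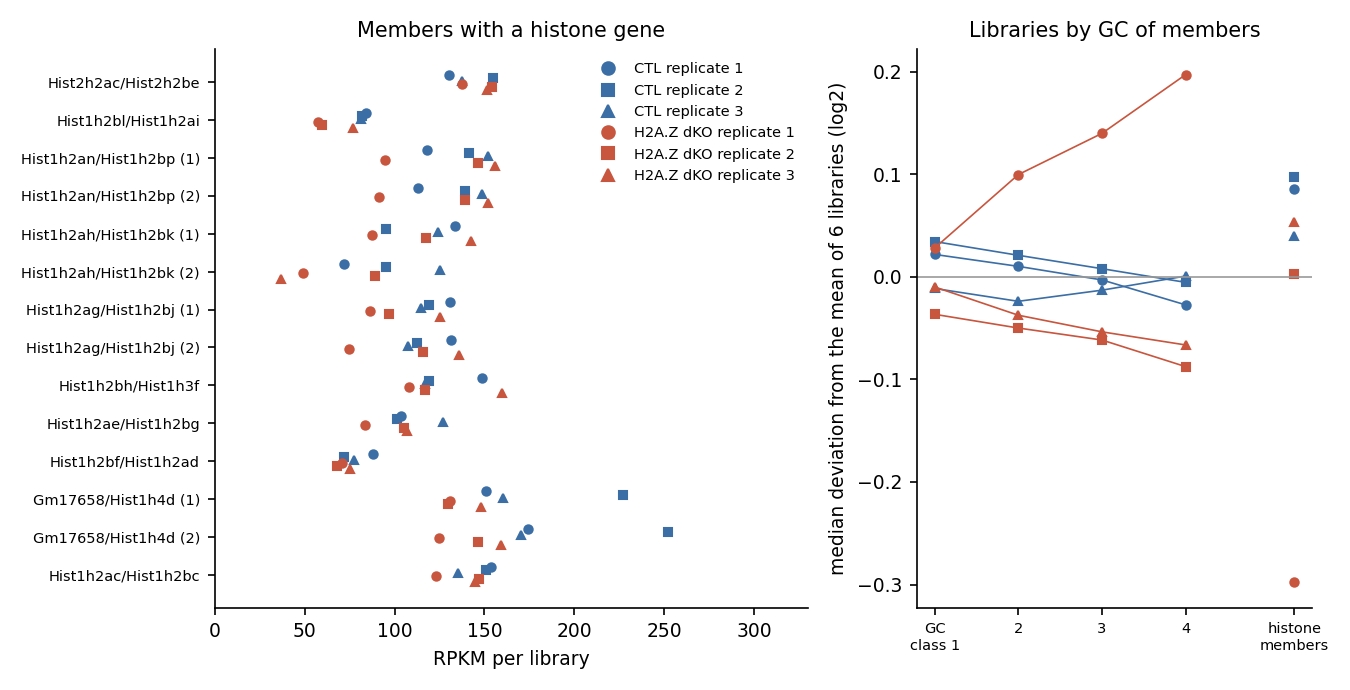
Left, RPKM of each of the 6 libraries in the 14 bidirectional intervals with a histone gene, numbered where a pair has more than 1. Right, median deviation of each library from the mean of the 6 libraries on the log2 scale, by GC class of the bidirectional intervals and for the histone pairs, where H2A.Z dKO replicate 1 goes from 0.028 to 0.197 and lies at -0.298 in the histone pairs.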

How the data were processed

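ATAC-seq of 6 libraries was analysed from the table of counts per interval that the authors deposited. The authors trimmed reads with Trimmomatic, aligned them to mm9 with Bowtie in local mode, removed duplicates with Picard, called peaks with MACS2 and counted fragment ends per interval without normalization. They also deposited, from their DESeq2 comparison, a signal column (the mean of scaled counts), log2 values (a fold change and its error), a score and p-values, none of which were used here. All sample columns of the table were matched by name, with 0 left unused. Interval starts were read as counted from 0 for distances, and interval coordinates are printed as in the file.

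Counts were compared with edgeR 4.0.16 in R 4.3.3 (TMM factors, robust quasi-likelihood test, no filter, no replicate block), and p-values were adjusted by Benjamini-Hochberg over all 39768 intervals and called under 0.05. The coefficient of variation between libraries beyond counting error, as edgeR estimates it, was 0.126. The depth of 3520008 to 6117245 counts and the number of libraries set the precision given by the 95% confidence intervals, which cover no PCR copies left after duplicate removal. RPKM were made from the width of an interval and the total of the library in intervals, with a pseudocount of 1 on the log2 scale. Deviations of libraries and the sums over markers used CPM scaled by TMM. Values per library were compared between groups by exact permutation, and medians of classes within libraries by exact sign flips. TSSs came from GENCODE vM1 and sequences from the NCBIM37 (mm9) genome, read with pysam 0.24.0 and handled in Python 3.11.15 with pandas 2.3.3. The test was tried on simulated data with known changes.

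The gene pairs and gene lists were chosen with earlier results of these data known. Named intervals are those of the 6 pairs with the highest mean RPKM, the 4 with the smallest p in each direction, those of well known pairs and of histone genes, those nearest the 500 bp limit, and those of groups with 5 or fewer. Of these last, the intervals of proteins for H2A.Z exchange are named by pair. A well known pair and a gene group of the rule are not reported here, for a reason that does not rest on their values. Alternatives were DESeq2, scaling by total counts, by median-of-ratios factors or by loess offsets, a replicate block, a filter of 20 counts in every library, windows of 250 and 1000 bp, protein-coding transcripts only, strictly divergent pairs only, intervals without overlap, intervals of at least 73 bp, pseudocounts of 0.1 and 10, 1 interval per gene pair, and each library left out. The loess offsets and the choice of 1 interval per gene pair were added after seeing the data.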

Additional observations from a re-analysis of the deposited data

How the results depend on the processing

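No bidirectional interval was called at an adjusted p under 0.05 in any of the 18 alternatives to the main edgeR test. The median log2 fold change, 0.014, lay between -0.050 and 0.042 over them. The -0.050 was found without H2A.Z dKO replicate 1, where the median over all intervals of the table was 0.0015. The counts at an unadjusted p under 0.05, 21 higher and 31 lower, became 9 and 9 with DESeq2, and the cause was not tested. Loess offsets turned the balance, to 28 higher and 19 lower (1.43% and 0.969%, against 2.68% and 2.43% of all intervals). A window of 1000 bp, with 2364 intervals, gave 32 higher and 39 lower (1.35% and 1.65%), and 1 interval for each of the 1005 gene pairs 7 and 22 (0.697% and 2.19%), against 2.64% and 2.31% of all. Leaving out each library gave 11 to 60 higher and 9 to 96 lower. The replicate block gave 19 higher and 23 lower (0.969% and 1.17%, against 2.29% and 2.13% of all) with 0 calls. Deviations from the group mean over all intervals had correlations of -0.098, -0.053 and -0.032 between same-numbered libraries of the groups. Between libraries of different number they were -0.053 to 0.091. With so few libraries a group, these values cannot decide whether the numbers pair the samples.

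The excess over unidirectional intervals, 0.134, was positive in all 16 alternatives. Without a replicate it was 0.128 to 0.138 with an exact p of 0.0625, the smallest that 5 libraries allow, and the other alternatives gave 0.126 to 0.264. The difference between groups in the share of counts, -0.017 percentage points, lay between -0.178 and 0.080 without a replicate and at 0.0064 with a window of 1000 bp. That in median log2 RPKM, 0.011, lay between -0.029 and 0.035, and that in the excess, 0.0093, between -0.0050 and 0.020 without a replicate. The share of counts between the TSSs was lower in H2A.Z dKO by 0.13 to 0.87 percentage points over 12 alternatives, and the 0.13 was found without H2A.Z dKO replicate 1. Of 166 values for 14 named intervals, 165 kept their sign. Most of the 14 were picked for a small p in these same counts, which favours a kept sign by construction. The count of kept signs therefore cannot show how stable the differences are. Not every interval with a printed log2 fold change was among the 14. The log2 fold change of Ubap2l/4933434E20Rik went from 0.30 to -0.15 without H2A.Z dKO replicate 1 and was at most 0.51 without any other replicate. That of Fbxo24/Lrch4 went from -0.14 to -0.093 with loess offsets. Narrow intervals with few counts limit what single promoters can show at this depth.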
